A study of Drosophila melanogaster with 3 samples.

Results

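Atg1, Atg13, Atg17, Atg101, Atg9, Atg2, Atg6, Atg7, Atg5 and Atg8a encode core machinery of autophagy in Drosophila melanogaster. These 10 genes were taken by name from the Ensembl annotation, out of 18164 genes on the 6 chromosome arms used and 13945 protein-coding genes among them, and all 10 were found. For each gene, every summit (the position of highest enrichment inside a peak) was collected from 2 kb upstream of its first transcription start site (TSS) to its end. Summits of the CG9727 fusion protein lay within 500 bp of a TSS at Atg2, Atg7, Atg8a, Atg9, Atg13 and Atg17. The thresholded list held no summit within that distance of a TSS of Atg1, Atg5, Atg6 or Atg101.

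The peaks come from chromatin immunoprecipitation and sequencing (ChIP-seq) of CG9727 carrying GFP at its C-terminus. The fusion was expressed stably in a transgenic fly line, and the precipitation used an antibody against GFP. All samples belong to 1 group, the CG9727-GFP line: mixed-sex embryos collected from 0 to 24 h, with chromatin sonicated to a size range of 200 to 800 bp, in 3 samples that the labels number as biological replicates. The promoter that drives the fusion is not given in the labels, nor is it stated whether the replicates were separate embryo collections, so the spread between them may in part be technical. No second condition was measured, control reads were not analysed here, and no precipitate from flies without the fusion was compared. In whole embryos, weak occupancy in many cells and strong occupancy in a few cells cannot be told apart.

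Autophagy encloses cytoplasm in a double membrane, the autophagosome, and delivers it to lysosomes for breakdown. In flies it is best known from the fat body and other larval tissues, where it responds to starvation and to the moulting hormone ecdysone, and it also takes part in removing tissues during development. A kinase complex starts the process, Atg9 vesicles and lipid transfer build the membrane, a lipid kinase complex marks it, and a conjugation system attaches Atg8 proteins to it.

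The thresholded list was made by irreproducible discovery rate (IDR) and held 7896 peaks, all on the dm6 genome build. Those peaks were identical to the 7896 peaks of highest signal in a relaxed list of 30000 peaks called on the pooled replicates. Each replicate also had a relaxed list of 30000 peaks. Signal is the authors' own peak score and can be ranked only inside a list. Rank 1 is the highest signal, and the IDR list ran from a signal of 5523 down to 158, with a median of 282. Read depth is not part of these lists, so no counting error is given.

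The sequences below show the summits that carry the description: the strongest summit upstream of a bound start site in each of Atg2, Atg17 and Atg8a, the second summit of Atg17 and of Atg8a, the nearer of the pair at Atg13, and the strongest of all 24 summits in the windows, which lies upstream of Atg5. Each is 101 bases of dm6 (RefSeq copy) centred on an IDR summit, contains no annotated exon base, and is printed 5′ to 3′ along the transcription of the Atg gene. Capitals mark matches, on either strand, to one of 8 motifs described further on.
Atg2, summit 206 bp upstream, chr3L:2774082-2774182, plus strand: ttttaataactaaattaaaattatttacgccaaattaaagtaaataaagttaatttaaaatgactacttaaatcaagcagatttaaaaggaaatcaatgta
Atg17, summit 251 bp upstream, chr3R:5669412-5669512, plus strand: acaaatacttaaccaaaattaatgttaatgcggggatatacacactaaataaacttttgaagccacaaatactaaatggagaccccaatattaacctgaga
Atg17, summit 51 bp upstream, chr3R:5669612-5669712, plus strand: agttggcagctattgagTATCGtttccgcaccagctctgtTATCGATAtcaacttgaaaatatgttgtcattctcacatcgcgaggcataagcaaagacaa
Atg13, summit 145 bp upstream, chr3R:8349620-8349720, plus strand: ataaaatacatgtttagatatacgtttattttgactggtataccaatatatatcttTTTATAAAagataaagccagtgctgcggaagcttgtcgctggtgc
Atg8a, summit 84 bp upstream of the middle TSS, chrX:10767340-10767440, minus strand: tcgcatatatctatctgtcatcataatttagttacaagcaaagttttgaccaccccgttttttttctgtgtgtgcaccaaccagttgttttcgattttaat
Atg8a, summit 112 bp upstream of the first TSS, chrX:10768400-10768500, minus strand: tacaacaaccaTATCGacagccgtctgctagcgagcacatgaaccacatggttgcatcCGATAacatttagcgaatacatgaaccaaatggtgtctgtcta
Atg5, summit 1244 bp upstream, chrX:7324964-7325064, minus strand: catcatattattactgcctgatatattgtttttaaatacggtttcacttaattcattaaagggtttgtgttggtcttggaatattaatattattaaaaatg
The window at Atg2 held 83 A or T bases of 101 and the distal one at Atg5 held 76. The windows at Atg17 held 69 at the farther summit and 59 at the nearer one, and the one at the first start site of Atg8a held 56.

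Atg1, Atg13, Atg17 and Atg101 encode the complex that starts autophagy. Atg1 is its protein kinase, Atg13 is the regulatory partner that links the kinase to nutrient signalling, Atg17 is the scaffold related to mammalian FIP200, and Atg101 binds Atg13. Within 500 bp of a start site, Atg17 and Atg13 had IDR summits, and Atg1 and Atg101 had none.

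Atg17 (FBgn0037363, chr3R:5669713-5679930, plus strand) had one of the strongest promoter summits of the 10 genes. Its strongest summit lay 251 bp upstream of the TSS, with a signal of 840.1 and rank 717. The best promoter summit had rank 670 in replicate 1, 589 in replicate 2 and 868 in replicate 3, or 709 ± 144 (SD, n = 3). All of them placed it among the strongest 1000 peaks of their list. A weaker summit, at rank 3764, lay 51 bp upstream. It was matched within 100 bp at rank 5794 in replicate 2 and 4450 in replicate 3. In replicate 1 a single summit 185 bp upstream stood in place of the pair. A further summit lay in an intron 3075 bp downstream of the TSS, with rank 1569 and replicate ranks of 1123, 2459 and 1993. The Atg17 start site was the nearest one to it.

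Atg13 (FBgn0261108, chr3R:8349815-8352817, plus strand) had the lowest-ranking best promoter summit among the bound genes. Its summits lay 365 bp upstream, with a signal of 218 and rank 5434, and 145 bp upstream, with a signal of 203 and rank 5934. The best promoter summit had ranks of 5009, 5715 and 5507 in replicates 1, 2 and 3, or 5410 ± 363 (SD, n = 3). The strength of the best summit was thus alike in the replicates. Its position was not. It lay 379 bp upstream in replicate 1, 261 bp in replicate 2 and 154 bp in replicate 3, so these ranks belong to different positions. The IDR summit at 365 bp was matched within 100 bp in replicate 1 only. The IDR summit at 145 bp had matches at ranks of 7918, 10377 and 5507, or 7934 ± 2435 (SD, n = 3). Only replicate 3 placed its match to that summit among its 7896 strongest peaks. Atg13 has no protein-coding neighbour that diverges from it within 1 kb, and no start site of another gene lies within 500 bp of either summit.

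Atg1 (FBgn0260945, chr3L:12784429-12805116, minus strand) is the longest of the 10 genes and had the most IDR summits in its window, 6, none of them at its start site. A relaxed summit lay 82 bp downstream of the TSS, in the 5′ UTR, with a signal of 147 and rank 8545, just outside the IDR list. Its replicate ranks were 6187, 14658 and 16926, so replicate 1 alone placed it among its 7896 strongest peaks. The strongest summit of the gene was in an intron, 1269 bp downstream, with a signal of 498, rank 1802 and replicate ranks of 2630, 1481 and 1597. A companion 1068 bp downstream had rank 4311 and replicate ranks of 11922, 3019 and 4380. These intronic summits were nearer to the Atg1 start site than to any other. Farther into the gene, summits 11989 bp and 11788 bp downstream, at ranks 3806 and 4298, also lie in an intron of CG42709, a gene on the opposite strand whose start site is the nearest to them. The farther one was matched in replicate 1 only, at rank 3765, and the nearer one had replicate ranks of 5737, 4317 and 3261. A summit 6039 bp downstream had rank 6084 and no match in replicate 1. Upstream, a summit at 1426 bp had rank 4224 and replicate ranks of 3116, 6618 and 5351. It is 356 bp from a TSS of Sap130, a subunit of the Sin3 histone deacetylase complex, and lies in an intron of that gene.

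Atg101 (FBgn0030960, chrX:18791668-18793517, plus strand) had no summit within 500 bp of its TSS in the IDR list, the pooled list or any replicate list. Its window held a pair of summits, 1845 bp upstream with a signal of 528 and rank 1642, and 1632 bp upstream with a signal of 379 and rank 2658. In replicates 1, 2 and 3 the farther one had ranks of 1598, 1424 and 1925, or 1649 ± 254 (SD, n = 3). The nearer one had replicate ranks of 3197, 5140 and 2972, or 3770 ± 1192 (SD, n = 3). Atg101 lies inside S6KL, a gene for a kinase related to S6 kinase, and these summits lie 339 bp and 126 bp upstream of a start site of S6KL. Both are within 500 bp of that start site and neither is within 1 kb of the Atg101 start site.

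**Figure D1:**
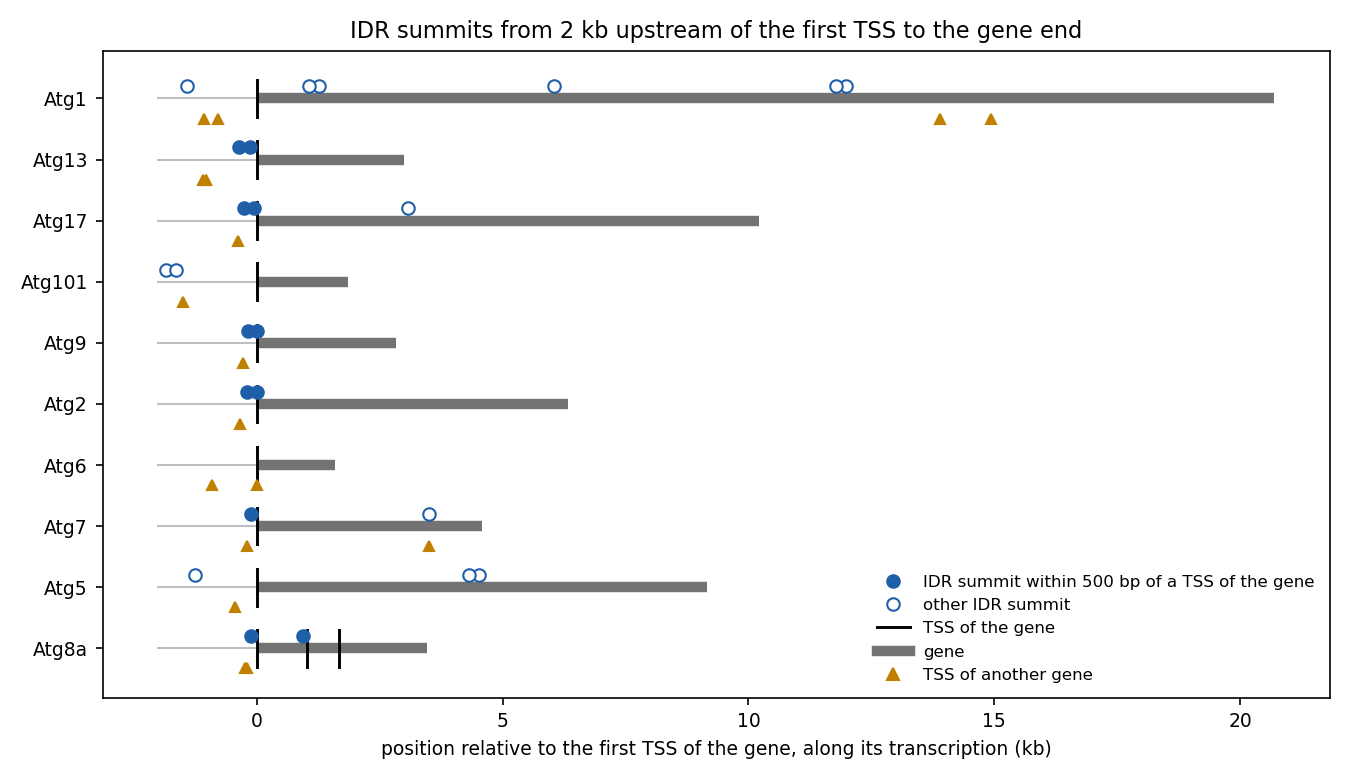
IDR summits across the gene windows of the 10 Atg genes, by position from the first TSS along transcription in kb, with filled circles within 500 bp of a TSS of the gene, open circles elsewhere, black ticks for its TSSs and triangles for TSSs of other genes. Filled circles stand at 6 genes, Atg6 has no circle, and Atg1 has 6 open ones spread over a window of 22688 bp.

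Atg9 and Atg2 act in membrane supply. Atg9 is the transmembrane protein carried by the vesicles that seed the autophagosome and moves lipids between membrane leaflets. Atg2 is a rod-shaped protein that transfers lipids into the growing membrane. Both had a pair of IDR summits at the start site, the stronger one upstream and the weaker one just inside the 5′ UTR.

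Atg2 (FBgn0044452, chr3L:2774338-2780677, plus strand) had the promoter summit of highest rank among the 10 genes. It lay 206 bp upstream, with a signal of 899 and rank 619. The replicate ranks were 850, 469 and 703, or 674 ± 192 (SD, n = 3). The second summit lay 8 bp downstream of the TSS, with a signal of 273 and rank 4129, and its replicate ranks of 4340, 2713 and 1313 gave 2789 ± 1515 (SD, n = 3). Atg2 was the only gene of the 10 with a matched pair at its start site in every replicate. The gene CG12093 diverges from Atg2, with start sites 331 bp apart, and the stronger summit is 125 bp from the CG12093 start site.

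Atg9 (FBgn0034110, chr2R:16294400-16297232, plus strand) had its stronger summit 185 bp upstream, with a signal of 469 and rank 1951. The replicate ranks were 2764, 1647 and 2171, or 2194 ± 559 (SD, n = 3). The second summit lay 14 bp downstream of the TSS, with a signal of 166 and rank 7526. It had ranks of 3920 in replicate 2 and 14746 in replicate 3 and no match in replicate 1, so it rested on fewer replicates than the upstream one. The stronger summit was nearer to the start site of the diverging gene CG7747, at 85 bp, than to that of Atg9.

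Atg6 (FBgn0264325, chr3R:24049180-24050782, minus strand) is the fly Beclin 1, a subunit of the Vps34 lipid kinase complex. It was the only one of the 10 genes without any IDR summit in its window. The pooled list held a summit 222 bp upstream with a signal of 112 and rank 11306, and another 428 bp upstream with rank 17811. Replicate 2 had a summit 173 bp upstream at rank 5471, inside its strongest 7896. In replicate 1 the best summit, 2 bp upstream, had rank 10889, and replicate 3 had none within 500 bp. The Atg6 start site is 1 bp from that of the diverging gene Pisd, which encodes the enzyme that makes phosphatidylethanolamine in mitochondria. A summit near this start site is therefore as near to one gene as to the other. Pisd has a second start site farther out, and relaxed summits 782 bp upstream in the pooled list and 762 bp upstream in replicate 3 lay 117 bp and 137 bp from it.

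Atg7, Atg5 and Atg8a belong to the conjugation system. Atg7 is the E1-like activating enzyme, Atg5 is the protein to which Atg12 is attached, and Atg8a is the ubiquitin-like protein joined to phosphatidylethanolamine on the autophagosome membrane. Atg7 and Atg8a had IDR summits at a start site and Atg5 did not.

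Atg7 (FBgn0034366, chr2R:18620466-18625044, minus strand) had a single promoter summit, 105 bp upstream, with a signal of 444 and rank 2117. The replicate ranks were 1990, 2700 and 1991, or 2227 ± 409.6 (SD, n = 3). This summit lies almost midway between the start sites of Atg7 and of the diverging gene Sec6, an exocyst subunit, whose start site is 100 bp away and slightly nearer. A stronger summit, with a signal of 774, rank 844 and replicate ranks of 682, 954 and 1136, lies in an Atg7 intron 3513 bp downstream. It is 10 bp from the start site of CG5335, a gene nested there on the opposite strand, and the replicates put it within 1 bp of the pooled position.

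Atg8a (FBgn0052672, chrX:10764878-10768338, minus strand) has 3 annotated start sites, and summits lay at the first and the middle one. The stronger summit was 84 bp upstream of the middle TSS, in an intron of the longer transcript, with a signal of 324 and rank 3301. The replicate ranks were 3844, 3498 and 3426, or 3589 ± 223 (SD, n = 3). No start site of another gene lies within 500 bp of it. The summit 112 bp upstream of the first TSS was just inside the IDR list, with a signal of 163 and rank 7666. Its matches had ranks of 12104, 8330 and 9510, so no replicate alone placed a match within 100 bp among its strongest 7896 peaks. Replicate 2 did have a summit at rank 5537 near this start site, 41 bp downstream of it. The IDR summit at the first TSS is 87 bp from the start site of the diverging gene BTBD9, an adaptor of a Cullin-3 ubiquitin ligase. It lies nearer to that gene. No summit in any list had the last Atg8a start site as its nearest one.

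Atg5 (FBgn0029943, chrX:7314622-7323770, minus strand) had the strongest summit of all the gene windows, but not at its promoter. It lay 1244 bp upstream with a signal of 1605 and rank 167, and its replicate ranks of 162, 217 and 152 gave 177 ± 35.0 (SD, n = 3). That position is in an intron of the diverging gene Dok, 800 bp downstream of the Dok start site. Within the gene, summits lay 4512 bp and 4311 bp downstream, at ranks 847 and 5068. The first had replicate ranks of 844, 1263 and 761 and the second had 7637, 9363 and 5930. All of these positions also fall in introns of CG1677 and of a long non-coding RNA gene that span Atg5. At the Atg5 promoter, the pooled list had a summit 207 bp upstream with a signal of 147 and rank 8512, just outside the IDR list. Replicates 1 and 2 ranked the promoter summit 4766 and 4915, inside their strongest 7896, and the best in replicate 3 was at rank 28989.

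**Figure D2:**
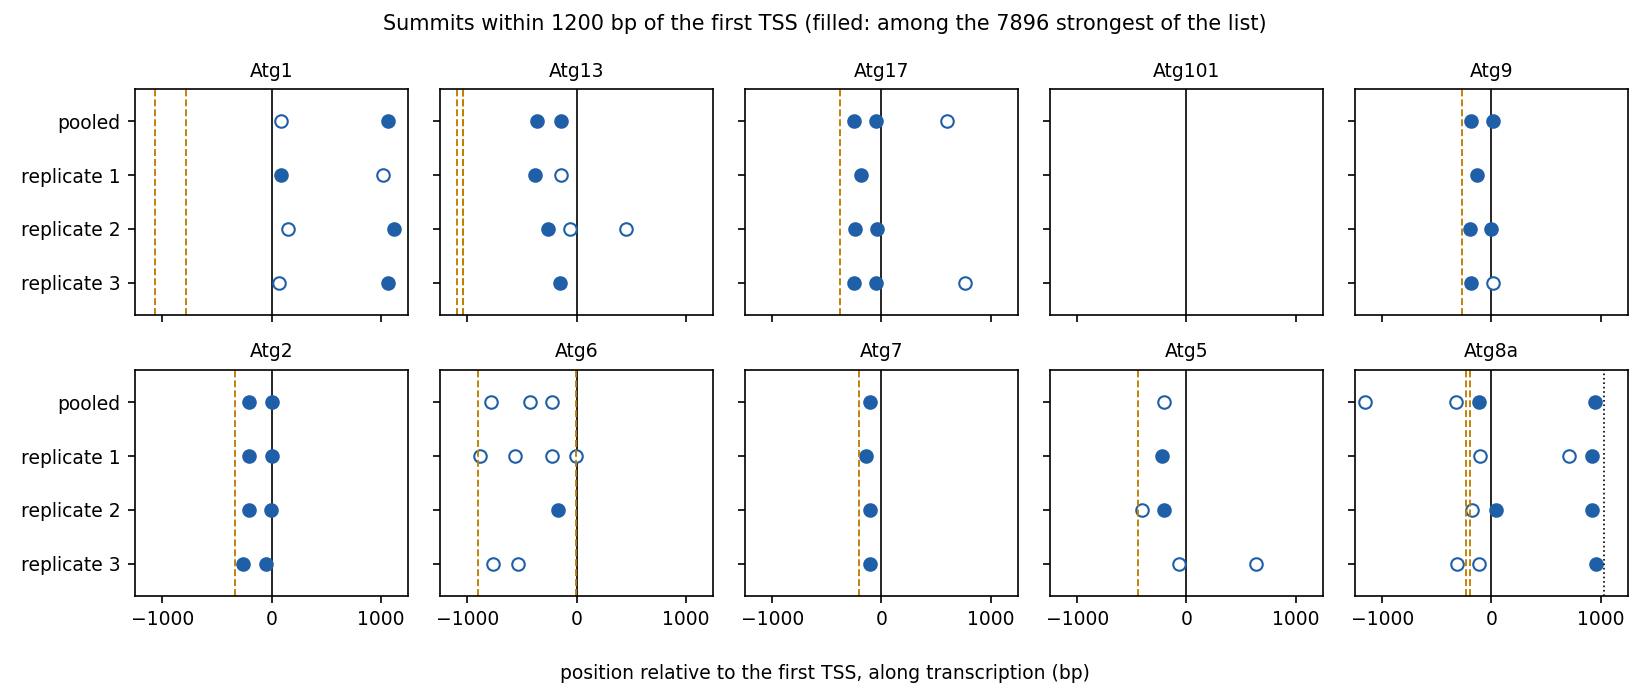
Summits within 1200 bp of the first TSS of each Atg gene in the pooled list and in replicates 1, 2 and 3, by position along transcription in bp, filled when among the 7896 strongest of that list (for the pooled list, the IDR list). Solid lines mark the first TSS, dashed lines TSSs of other genes and the dotted line the middle TSS of Atg8a, and filled circles line up over every list at Atg2 and Atg7 while Atg101 has none.

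The strongest promoter summits fell into an order in which some neighbours were separated by more than their spread and others were not. By mean replicate rank, Atg2 at 674 ± 192 and Atg17 at 709 ± 144 overlapped. Atg9 at 2194 ± 559 and Atg7 at 2227 ± 409.6 overlapped as well. Each of these genes ranked ahead of Atg8a at 3589 ± 223, and Atg8a ranked ahead of Atg13 at 5410 ± 363, with no overlap of replicate values. Atg1 at 12590 ± 5660 and Atg5 at 12890 ± 13942 (SD, n = 3 for each value) had replicate values that overlapped each other. All replicate values of Atg1 were behind those of Atg13, and those of Atg5 spread on both sides of them. Atg6 had a promoter summit in 2 of 3 replicates and was left out of the order, as was Atg101.

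**Figure D3:**
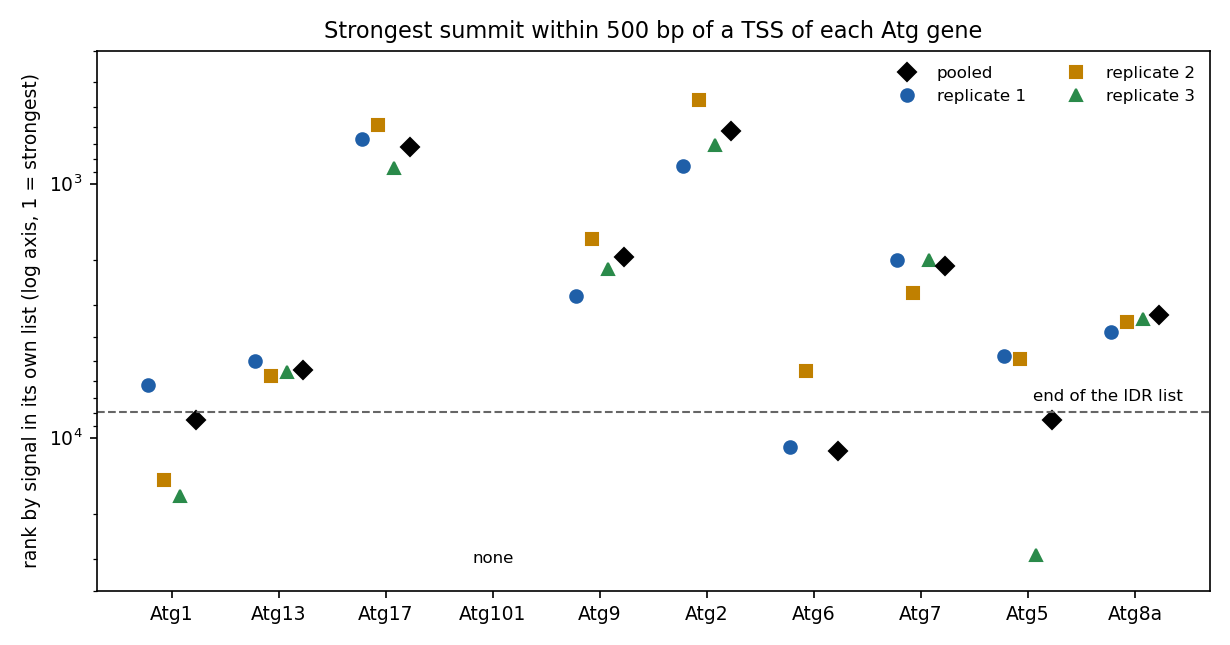
Signal rank of the strongest summit within 500 bp of a TSS of each Atg gene, on a log axis with rank 1 at the top, for replicates 1, 2 and 3 and the pooled list, each ranked in its own list. Above the dashed line at rank 7896, where the IDR list ends, stand all values of Atg2, Atg7, Atg8a, Atg9, Atg13 and Atg17, and Atg101 has no value.

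In counts, 6 of the 10 Atg genes (60.0%) had an IDR summit within 500 bp of a TSS, beside 27.0% of all protein-coding genes. In the wider window, from 2 kb upstream to the gene end, 9 of 10 (90.0%) had one, beside 37.2%. The Atg windows were longer, with a median of 6020 bp beside 4166 bp for protein-coding genes, and a longer window can hold more summits. With the relaxed pooled list, a TSS lay within 500 bp of a summit at 9 of 10 Atg genes, beside 50.1%. When each summit was given only to the gene of its nearest start site, 5 of the 10 kept an IDR summit, beside 20.4%. Atg7 lost its promoter summit to its neighbour. Atg2, Atg9 and Atg17 lost their strongest one and kept only the weaker, at ranks 4129, 7526 and 3764. Among genes bound at a TSS, the median rank of the best summit was 2034 for the 6 Atg genes and 3101 for 3770 protein-coding genes. That best summit lay upstream of the TSS in 6 of 6 Atg genes and in 3247 of 3770 protein-coding genes, at a median position of −196 bp beside −143 bp. No test was made of these differences, because the genes were chosen by name with earlier results of these data known.

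Each replicate alone, cut to its 7896 strongest peaks, gave 8, 8 and 6 of the 10 Atg genes a summit within 500 bp of a TSS. That is 73.3% ± 11.5 for the Atg genes, beside 27.1% ± 0.710 for protein-coding genes (SD, n = 3 each). Replicate 3 gave the same 6 genes as the IDR list. Replicate 1 added Atg1 and Atg5, and replicate 2 added Atg5 and Atg6, so Atg5 was called in 2 of 3 replicates, and Atg1 and Atg6 each in 1.

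The windows held 24 IDR summits: 12 upstream of the gene, 10 in introns and 2 in 5′ UTRs. The same windows held 46 summits in the relaxed pooled list and 49, 42 and 43 in the lists of replicates 1, 2 and 3, with the most at Atg1 in each list. Of the 24 IDR summits, 11 lay within 500 bp of a TSS of the Atg gene and 13 did not. Within 100 bp, 15 of the 24 (62.5%) had a summit among the strongest 7896 of all 3 replicates, which equals the 62.5% over the whole IDR list. Within the same 100 bp, a further 4 summits had such support in 2 replicates, 4 in 1 and 1 in none. In the whole list of 7896, 1943 had it in 2 replicates, 903 in 1 and 114 in none. With matching within 50 bp, 8 of the 24 (33.3%) had support in all 3 replicates, beside 42.9% of the whole list. The IDR list was made from these same replicates, so part of this support is built in.

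Most Atg genes share their upstream region with a neighbour. A protein-coding start site diverged within 1 kb from 8 of the 10 (80.0%), beside 36.2% of protein-coding genes. The distances between start sites were 1 bp for Atg6 and Pisd, 199 bp for Atg8a and BTBD9, 205 bp for Atg7 and Sec6, and 270 bp for Atg9 and CG7747. They were 331 bp for Atg2 and CG12093, 379 bp for Atg17 and Xe7, 444 bp for Atg5 and Dok, and 786 bp for Atg1 and Sap130. Only Atg13 and Atg101 had no such neighbour. Of the 8 Atg genes with a diverging neighbour, 5 (62.5%) had an IDR summit at a TSS, beside 47.9% of protein-coding genes with one. Of the 2 without, 1 had such a summit, beside 15.2%. The 5 bound genes with a neighbour were Atg2, Atg7, Atg8a, Atg9 and Atg17, and Atg13 was the bound gene without one.

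A summit at 5 of the 6 bound Atg genes (83.3%) also lay within 500 bp of a TSS of another gene, beside 63.3% of bound protein-coding genes. With 200 bp in place of 500 bp the count was 3 of 6, beside 43.4%. The strongest Atg17 summit was 251 bp from the Atg17 start site and 128 bp from that of Xe7. Measured the same way, the strongest Atg2 and Atg9 summits and the Atg7 summit were also nearer to the neighbour. The weaker summits of Atg2, Atg9 and Atg17 were nearer to the Atg start site, at 8, 14 and 51 bp. They lay 339, 284 and 328 bp from that of the neighbour, in the same order. All of these summits are within 500 bp of both start sites, so position alone does not assign them to either gene. No start site of another gene lay within 500 bp of the summits at the middle start site of Atg8a and at Atg13.

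Summits in the Atg windows often came in pairs. There were 8 pairs of IDR summits no more than 250 bp apart, with gaps of 199 to 220 bp. They stood at the start sites of Atg2, Atg9, Atg13 and Atg17, in introns of Atg1 (2 pairs) and Atg5, and upstream of Atg101. They held 16 of the 24 summits (66.7%), beside 1821 of 7872 (23.1%) of the other IDR summits. The smallest gap between summits was 199 bp in the IDR list and in every relaxed list, so the pairs lay close to the narrowest spacing that the lists hold. In replicate 1 the Atg9 and Atg17 pairs were each a single summit, 130 bp and 185 bp upstream, between the positions of the pooled pair. In replicate 3 the Atg13 pair was a single summit 154 bp upstream. The Atg1 pair 11989 bp and 11788 bp downstream was a single summit at 11777 bp in replicate 2 and at 11882 bp in replicate 3. The other pairs appeared as pairs in every replicate list.

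The 8 motifs were searched on both strands, both in the 101-base windows around IDR summits and in promoters from 250 bp upstream to 50 bp downstream of the first TSS. The letters TATCGATA, the DNA replication-related element (DRE) bound by Dref, occurred in 1 of 24 Atg windows (4.17%), beside 1.75% of all IDR windows. That window is the Atg17 summit 51 bp upstream printed above, where the element begins 61 bp upstream of the TSS and its centre lies 6 bp from the summit. In promoters, TATCGATA occurred in 3 of 10 Atg genes, Atg7, Atg13 and Atg17, beside 9.36% of protein-coding promoters and 15.6% of those of bound genes. It began 17 bp upstream of the Atg7 TSS and 2 bp upstream of the Atg13 TSS, and the centres of these matches were 91 bp and 147 bp from the nearest IDR summit.

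The letters CGATA, the site of the insulator protein BEAF-32 and contained in TATCGATA, occurred in 3 Atg windows (12.5%), beside 14.8% of IDR windows. In promoters they occurred at 6 Atg genes, beside 47.4% of protein-coding and 56.3% of bound promoters. The window at the first Atg8a start site, printed above, holds them on each strand. The core of Motif 1, GGTCACAC, known from promoters bound by M1BP, occurred in no Atg window, beside 1.05% of IDR windows. In promoters it occurred at Atg7 and Atg8a, beside 7.70% of protein-coding and 12.2% of bound promoters. At Atg8a it occurred on opposite strands 195 bp and 10 bp upstream of the first TSS.

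The letters CACGTG, the core of the element read by the lysosomal regulator Mitf and its mammalian relative TFEB, occurred in no Atg window and no Atg promoter, beside 0.988% of IDR windows, 4.2% of protein-coding promoters and 4.88% of bound promoters. GTAAACA, a forkhead site of the kind bound by FOXO, occurred in 1 Atg window, the intronic Atg17 summit, beside 3.79% of IDR windows. It occurred in no Atg promoter, beside 9.19% of protein-coding and 10.6% of bound promoters. TATAAA occurred in 3 Atg windows and 6 Atg promoters, beside 22.2% of IDR windows, 45.8% of protein-coding promoters and 46.4% of bound promoters. One of these is the Atg13 window printed above.

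GAGAG, the site of the GAGA factor, occurred in 2 Atg windows and 3 Atg promoters, beside 10.4%, 29.7% and 29.4% of IDR windows, protein-coding promoters and bound promoters. TAATTA, a homeodomain core, occurred in 1 Atg window and 1 Atg promoter, both of Atg9, beside 9.85%, 20.4% and 23.4% of the same sets. The median A and T content was 64.9% in the 24 Atg windows, beside 67.3% in all IDR windows. A match says only that these letters are present, and a window without one says nothing of the factor.

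Other genes of the pathway came from lists fixed by name. Of 22 further autophagy genes, 10 (45.5%) had an IDR summit within 500 bp of a TSS, beside the 27.0% of protein-coding genes. The replicates alone gave 12, 11 and 10, or 50% ± 4.55 (SD, n = 3). In the conjugation system, Atg3, the E2-like enzyme, had its summit at rank 3659. Atg4b, a protease that processes Atg8 proteins, had one at rank 1444, and Atg12, the partner of Atg5, at rank 3926. Among genes of the lipid kinase complex and its readers, Vps15, the regulatory subunit, had a summit at rank 2227, Rubicon, an inhibitor in mammals, at 6519, and Atg18a, which binds the lipid product, at 1273.

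For the later steps, Syx17 and Snap29, the SNARE proteins that fuse autophagosomes with lysosomes, had summits at ranks 4486 and 1383. Epg5, which tethers these membranes, had one at rank 2315, and Tango5, the fly Vmp1, a membrane protein of the endoplasmic reticulum, at rank 3254. The summits at Atg3, Atg4b, Atg12, Atg18a and Snap29 also lay within 500 bp of a TSS of another gene: Nufip, Hibch, CG5645, ERR and CG5554, in that order. No IDR summit lay within 500 bp of a TSS at the other 12, which include Atg14, Atg16, the lipid kinase Pi3K59F, the cargo receptor ref(2)P and Mitf. Uvrag, a subunit of the lipid kinase complex named here after its values were seen, was among the 12, although each replicate alone had a strong promoter summit there. Its ranks were 3193, 2636 and 3170 in replicates 1, 2 and 3, and the pooled list had no summit within 1 kb of its TSS. EDTP, likewise named after its values were seen, had one in replicate 1 only, at rank 4640.

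Of 10 genes of the kinase pathways that act on the Atg1 complex, 5 (50%) had a promoter summit in the IDR list. The replicates alone gave 6, 5 and 5, or 53.3% ± 5.77 (SD, n = 3). The count depended on the window: within 200 bp of a TSS it was 2 of 10, beside 19.2% of protein-coding genes. The bound genes were mTor, the kinase that restrains autophagy when nutrients are plentiful, at rank 1561, and its activator Rheb at rank 2621. SNF4Agamma, the gamma subunit of AMP-activated kinase, was at rank 1780, its upstream kinase Lkb1 at rank 2659, and S6k, a target of mTor, at rank 6828. The summits at mTor, Rheb, Lkb1 and S6k were shared with Vha68-1, CG2931, CG9588 and kri, in that order. No IDR summit lay within 500 bp of a TSS at raptor, AMPKalpha, alc, Tsc1 or gig.

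Of 20 lysosome genes, 9 (45.0%) had a promoter summit in the IDR list, and each replicate alone gave 8, or 40.0%. Proteases among them were CtsB at rank 4185 and CtsL1 at rank 5241. Npc1a, which exports cholesterol, was at rank 6936. The others encode subunits of the proton pump: Vha26 at rank 3135, Vha44 at 4484, Vha100-1 at 4707, VhaPPA1-1 at 5350, VhaM9.7-a at 6266 and Vha68-2 at 7036. All 9 ranked behind Atg2, Atg17, Atg9 and Atg7. The summits at CtsB, CtsL1 and Npc1a were shared with amrt, Rpn13 and Prosalpha6, in that order. Those at Vha26, Vha44, Vha100-1 and VhaM9.7-a were shared with noi, Hmgs, dgt6 and CG11586, in that order. The other 11 lysosome genes had no such summit: Lamp1, cathD, CtsF, Trpml, Npc2a, Gba1b, Hexo1, Vha55, VhaSFD, VhaAC39-1 and VhaAC45. The 3 lists and the Atg genes all had larger shares bound within 500 bp than protein-coding genes as a whole in every replicate. A diverging neighbour stood at 12 of the 22 autophagy, 6 of the 10 kinase pathway and 10 of the 20 lysosome genes, beside 36.2% of protein-coding genes. Of protein-coding genes with such a neighbour 47.9% were bound, and of those without 15.2%. Whether this accounts for the shares of the lists was not tested. Within 200 bp, the share of kinase pathway genes in the IDR list was close to that of protein-coding genes. No test was made between the lists.

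**Figure D4:**
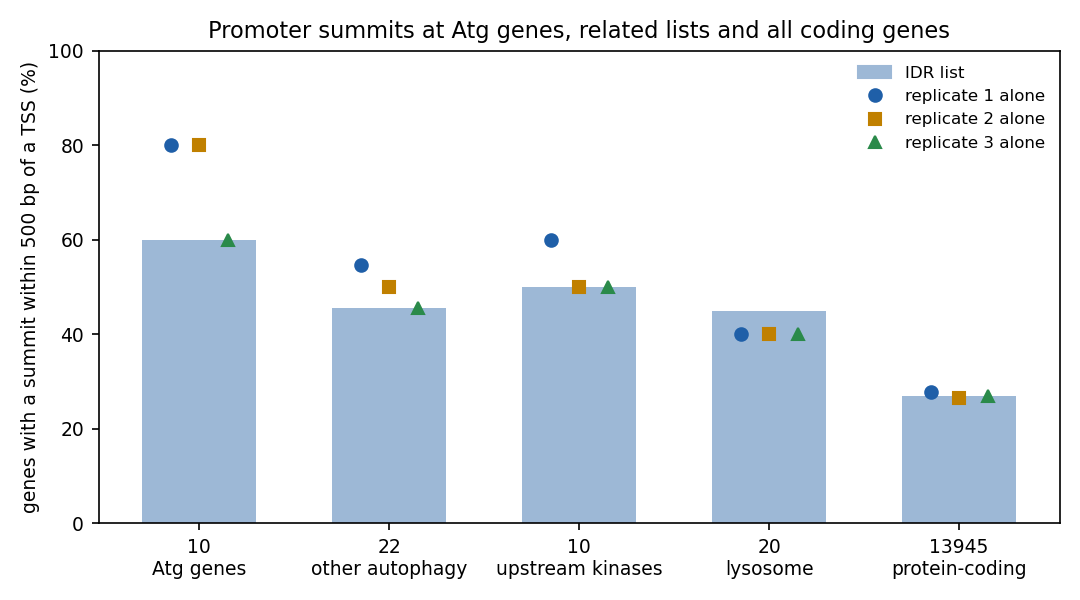
Percent of genes with a summit within 500 bp of a TSS, with bars for the IDR list and points for the 7896 strongest peaks of replicates 1, 2 and 3. The sets are the 10 Atg genes, 22 other autophagy genes, 10 kinase pathway genes (labelled upstream kinases), 20 lysosome genes and 13945 protein-coding genes. The Atg bar stands at 60.0%, with points at 80.0%, 80.0% and 60.0%, and the protein-coding bar at 27.0%.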

How the data were processed

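Per the file descriptions deposited with the samples, the authors derived a relaxed peak list for each of 3 replicates from its alignment and 1 control, a pooled relaxed list, and an IDR list from those 4, on dm6. The aligner, the peak caller and the IDR threshold were not given in the sources used here. Lists on dm3 were not used. The deposited columns used were the authors' signal per peak, their −log10 q values, and other columns holding coordinates and summit offsets, converted to count from 1. Of the IDR peaks, 6318 tied at the highest −log10 q value, 4.10, so peaks were ranked by signal.

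Gene models came from Ensembl release 115 (BDGP6), where all 10 genes had the same position as in RefSeq, and sequence from the RefSeq copy of the assembly. Bound genes are those with at least 1 TSS no more than 500 bp from an IDR summit. Summits matched within 100 bp. Background shares are over 13945 protein-coding genes. The promoter call was tested on simulated data, with summits placed within 500 bp of chosen start sites. That checks the code only, not whether a summit marks a bound promoter. Python 3.11.15 was used.

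The genes and lists were chosen with earlier results of these data known. Genes named are the 10, every gene with a TSS within 500 bp of their IDR summits, the nearest gene to the other summits, and every bound member of the 3 fixed lists. Diverging neighbours (Pisd among them), genes whose introns hold a summit (CG1677), genes that share a summit with a list member, and unbound list members were named outside this rule, after their values were seen. Older symbols (Vps34, Vmp1, Tor) were matched by RefSeq synonyms.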

Additional observations from a re-analysis of the deposited data

How the results depend on the processing

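Over 10 results, 38 of 46 alternatives left a count within 1.5 times the reported one, or a share or median within 1 SD over replicates of it. Some of these could not have come out otherwise, so the tally overstates how stable the results are. The 7896 strongest pooled peaks are the IDR list, so settings based on them had to repeat the main values. A mean over 3 replicates always stays within 1 SD when 1 is left out. The number of Atg genes bound at a TSS stayed between 5 and 8 of 10. It was 6 with 200 bp, beside 19.2% of protein-coding genes, and 6 with 1000 bp, beside 30.6%. With the 3948 strongest IDR peaks it was 5, beside 16.6%. Atg2, Atg7, Atg8a, Atg9 and Atg17 were bound under each of these 3 settings, and Atg7 was not when a summit went only to its nearest TSS. The mean share of Atg genes over the replicates, 73.3%, was 50% with 3948 peaks per replicate and 86.7% with the whole relaxed lists. It was 60.0% with a TSS window of 200 bp, and 70.0% to 80.0% when 1 replicate was left out. Protein-coding shares of the replicates with fewer peaks, relaxed lists or 200 bp are not given here. Related protein-coding shares were 16.6% with the 3948 strongest IDR peaks and 50.1% with the relaxed pooled list. In the IDR list with 200 bp the share was 19.2%. Atg summits with support in every replicate, 15 of 24, fell to 8 with matching within 50 bp. They were 15 to 18 when 1 replicate was left out, which asks for fewer matches and so could not lower the count. Ranked by −log10 q, with its many ties, the median best rank was 3160, against 2034 by signal. With 200 bp, 3 Atg genes had a summit also at the TSS of another gene, against 5. Chosen after seeing the data, the TSS window of 200 bp gave 2 of 10 bound kinase pathway genes, against 5 (the background being the 19.2% above). Likewise chosen after seeing the data, 100 bp on either side of the summit gave 16 Atg windows with a motif, against 8. The causes of these changes were not tested. The IDR list could not be remade without a replicate. No paired analysis was possible because the samples form 1 group. Depth is unknown from these lists, and 1 control limits what background they remove.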
